A study of Mus musculus with 12 samples.

Results

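The distal 10 Mb of 16 mouse autosomes were examined for places where meiotic recombination starts, in wild type mice and in mice without ANKRD31. The windows hold every hotspot whose centre lay within 10 Mb of the distal end of an autosome other than 4, 9 and 13, by the mm10 chromosome lengths. They contained 956 of the 13480 hotspots of the wild type list and 1250 of the 22034 hotspots of the knockout list. The rule uses position alone, and the windows were proposed with earlier results of these lists known.

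The hotspots come from DMC1 single-stranded DNA sequencing (SSDS) of whole testis of adult male mice, 2 samples per genotype, each immunoprecipitated with an antibody against DMC1. The wild type mice were C57BL/6JCrl (B6), and the knockout mice carried the Ankrd31 allele labelled tm1Atot, and the labels give no strain background for them. Each genotype has 1 deposited hotspot list, and the sources used here do not say whether a list pools both animals. There is therefore no replicate check between genotypes, no p-value was computed, and differences of strain and of library cannot be told apart from the genotype. Whole testis holds somatic cells and spermatids as well as the spermatocytes in which breaks form.

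Meiotic recombination begins when SPO11 cuts both strands of DNA at hotspots. The broken ends are trimmed to single strands that the recombinase DMC1 coats, which is the DNA that SSDS recovers. In B6 mice most hotspots lie where PRDM9 binds its motif and marks the neighbouring nucleosomes, away from promoters, while in its absence breaks turn to promoters and other sites with open, H3K4me3-marked chromatin. ANKRD31 binds REC114 and belongs, with MEI4 and IHO1, to the assemblies on the chromosome axis that precede breaks. It is known for the clusters of these proteins on the pseudoautosomal region and on the ends of chromosomes 4, 9 and 13, which carry a repeat called the mo-2 minisatellite, and this is why those 3 ends are kept apart here.

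A hotspot was called shared when its interval overlapped an interval of the other list by at least 1 bp, and otherwise wild-type-only or knockout-only. These classes describe the lists, since a weak hotspot can miss the calling threshold of a list. Strength is the reads of the interval minus the authors' background estimate. The lists held 4376692 and 4203380 reads in hotspots, of which 224060 (wild type) and 162748 (knockout) lay in the windows. Shared hotspots were compared by relative strength, that is strength over the median of all autosomal shared hotspots in its own list (wild type 182, knockout 151), given as log2 of knockout over wild type. Ranges in brackets after shares and strengths are exact 95% binomial or Poisson intervals. They cover counting error only, since reads without molecular identifiers are not independent molecules.

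The promoters below show the sequences where the knockout list gained hotspots in the windows, and where it did not. Each run is the 250 bases before a gene start, in the gene's direction, from RefSeq promoters of GRCm38.p6, with every CG dinucleotide in capitals. Sumo2, which encodes a ubiquitin-like modifier, and Traf3, a signalling adaptor, carried the strongest knockout-only hotspots among the window promoters with a sequence, 6.55 and 8.96 Mb from the end. Smc3 encodes a cohesin subunit that meiotic axes need, and its promoter lies 7.83 Mb from the end. Acvr1b, an activin receptor gene, had the strongest promoter hotspot of the last 3 Mb. Brca2, needed to load the recombinases, and Cdk2, a kinase found at crossover sites, have CG-rich promoters at 1.31 and 1.99 Mb with no hotspot of either list within 1 kb of the start. In the order printed, the intervals are chr11:115536231-115536480 (minus strand), chr12:111166120-111166369 (plus), chr19:53600146-53600395 (plus), chr15:101173822-101174071 (plus), chr5:150522371-150522620 (plus) and chr10:128705052-128705301 (minus).
Sumo2: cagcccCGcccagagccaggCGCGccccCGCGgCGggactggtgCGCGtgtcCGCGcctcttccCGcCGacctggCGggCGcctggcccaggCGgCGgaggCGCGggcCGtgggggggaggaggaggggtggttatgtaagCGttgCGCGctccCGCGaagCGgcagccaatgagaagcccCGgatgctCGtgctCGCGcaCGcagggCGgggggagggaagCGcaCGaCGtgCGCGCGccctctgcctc
Traf3: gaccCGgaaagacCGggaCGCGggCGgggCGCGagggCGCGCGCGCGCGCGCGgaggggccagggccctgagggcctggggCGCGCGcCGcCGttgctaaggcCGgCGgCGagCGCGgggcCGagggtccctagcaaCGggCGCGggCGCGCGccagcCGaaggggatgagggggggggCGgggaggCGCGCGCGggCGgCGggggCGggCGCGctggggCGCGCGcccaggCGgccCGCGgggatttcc
Smc3: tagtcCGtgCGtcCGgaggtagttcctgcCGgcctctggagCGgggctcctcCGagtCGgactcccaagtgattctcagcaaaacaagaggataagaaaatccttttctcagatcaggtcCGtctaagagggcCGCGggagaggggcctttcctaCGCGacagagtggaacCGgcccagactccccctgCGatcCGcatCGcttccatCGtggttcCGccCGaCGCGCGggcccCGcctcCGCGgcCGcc
Acvr1b: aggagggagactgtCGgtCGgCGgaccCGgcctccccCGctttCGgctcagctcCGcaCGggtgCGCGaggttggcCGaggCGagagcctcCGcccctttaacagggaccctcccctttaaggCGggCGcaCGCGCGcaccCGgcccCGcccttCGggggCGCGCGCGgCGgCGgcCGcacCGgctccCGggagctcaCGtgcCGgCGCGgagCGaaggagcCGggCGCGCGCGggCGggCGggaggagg
Brca2: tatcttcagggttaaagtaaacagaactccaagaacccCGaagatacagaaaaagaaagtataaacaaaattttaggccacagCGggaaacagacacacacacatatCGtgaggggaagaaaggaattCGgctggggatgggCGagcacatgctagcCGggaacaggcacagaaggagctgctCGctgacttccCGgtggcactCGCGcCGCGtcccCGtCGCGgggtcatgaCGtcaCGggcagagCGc
Cdk2: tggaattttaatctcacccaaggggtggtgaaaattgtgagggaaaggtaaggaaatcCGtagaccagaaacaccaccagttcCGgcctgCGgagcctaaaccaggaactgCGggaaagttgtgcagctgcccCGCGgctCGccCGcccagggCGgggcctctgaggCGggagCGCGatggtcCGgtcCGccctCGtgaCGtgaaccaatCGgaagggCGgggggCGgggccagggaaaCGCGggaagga
The printed bases hold 37 CG dinucleotides at Sumo2, 49 at Traf3, 26 at Smc3 and 42 at Acvr1b, against 18 at Brca2 and 21 at Cdk2. Knockout-only hotspots at the first 4 had strengths of 418, 344, 248 and 144. The printed promoters are not a full sample: that of Syce1, not printed, holds 13 CG dinucleotides in its 250 bases and had a knockout-only hotspot of 94.

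The gain in hotspot number seen in the knockout list was smaller in the windows than in the rest of the same 16 chromosomes, and wild type hotspots were more often missing. In the windows, the number of knockout hotspots was 1.31 times that of wild type hotspots (95% interval 1.20 to 1.42), against 1.66 times in the rest. That interval treats the 2 counts as independent, although shared hotspots are counted in both, and does not measure spread between animals. The number ratio depends on the strength floor: among hotspots of at least the wild type median strength the ratio was 0.626 (1.12 in the rest), with the knockout list reduced to the length of the wild type list it was 0.650 (0.995), and in the distal 5 Mb it was 0.931. The windows had 621 shared, 335 wild-type-only and 629 knockout-only hotspots. Of the wild type hotspots, 35.0% (32.0 to 38.2) were in the wild type list only, against 13.0% in the rest and 14.8% in the whole list. Of the knockout hotspots, 50.3% (47.5 to 53.1) were in the knockout list only, close to the 47.5% of the rest and 47.9% of the whole list.

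Shared hotspots of the windows were weaker in the knockout. Their median log2 relative strength was -0.54 (SD 0.97 over 621 hotspots), against 0.02 in the rest. Relative strength was lower in 450 of 621, where 50.3% of all 11487 shared hotspots were lower. It was over 2-fold lower in 221 (35.6%, 31.8 to 39.5), against 15.8% of all shared hotspots, and over 2-fold higher in 36 (5.80%), against 13.2%. The windows took 5.90% of the summed autosomal strength of the wild type list and 4.49% of that of the knockout list. That sum was spread over 1629 kb of hotspots in the wild type, with a mean strength of 222, and over 2053 kb in the knockout, with a mean of 119. In the rest the mean strengths were 291 and 165, so hotspots of the windows were weaker than those of the rest in both lists. The background estimate per kb of hotspot was 7.09 reads for wild type windows and 6.82 for knockout windows, with 8.03 and 6.80 in the rest.

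**Figure D1:**
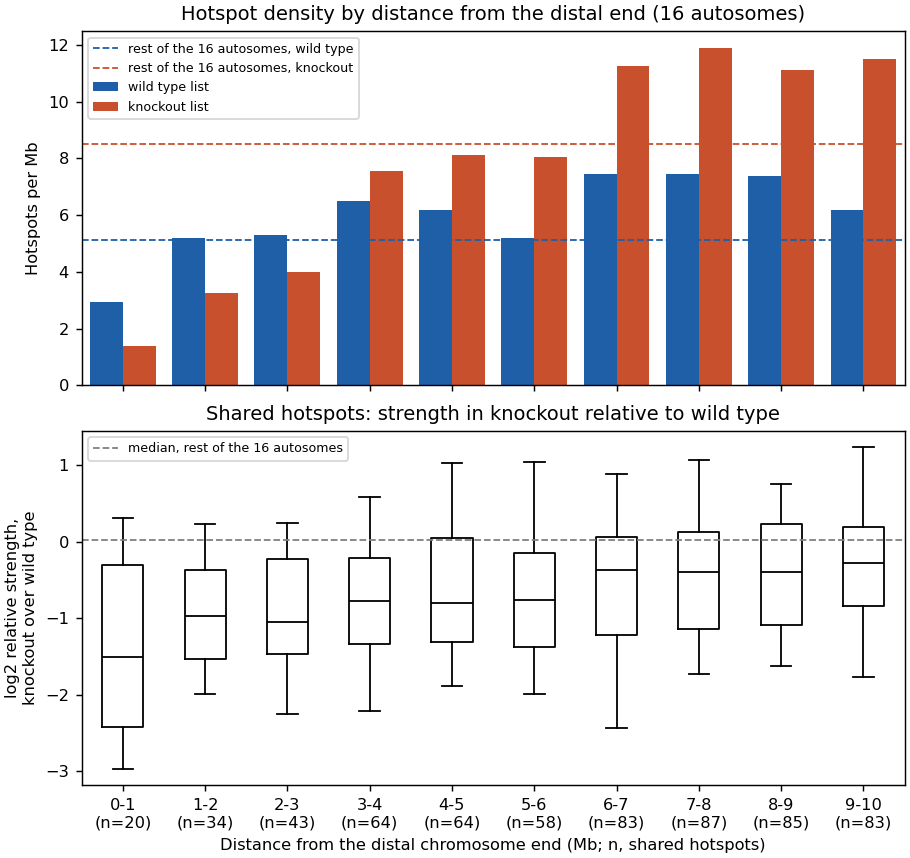
Hotspot density and shared hotspot strength by distance from the distal end, over 16 autosomes. The upper plot gives hotspots per Mb in each list in 1 Mb bins, with dashed lines at the density of the rest of the same chromosomes (wild type 5.13, knockout 8.50). The lower plot gives log2 relative strength of shared hotspots, knockout over wild type, as medians, quartile boxes and whiskers from the 5th to the 95th percentile. Knockout bars are the lower ones only in the first 3 bins, and the medians climb from -1.51 in the first bin to -0.28 in the last.

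The change was graded with distance from the end. In the last 1 Mb, the wild type list had 47 hotspots and the knockout list 22. From 1 to 2 Mb they had 83 and 52, and from 2 to 3 Mb 85 and 64. From 3 to 4 Mb the knockout list was the larger, with 121 against 104 hotspots. The ratio of knockout to wild type number went from 0.468 in the first bin through 0.627, 0.753 and 1.16 to 1.31 from 4 to 5 Mb. Farther in it lay between 1.51 and 1.86, around the 1.66 of the rest.

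Few hotspots new to the knockout list lay at the ends, and those of the wild type were often missing. Knockout-only hotspots numbered 2 in the last 1 Mb of all 16 chromosomes, which is 0.125 per Mb against 4.03 per Mb in the rest. Their density was 1.12 per Mb from 1 to 2 Mb, 1.31 from 2 to 3 Mb, 3.56 from 3 to 4 Mb and 6.16 from 6 to 10 Mb. Wild-type-only hotspots went the other way, with 57.4% of wild type hotspots in the first bin (42.2 to 71.7), 59.0% in the second, 49.4% in the third, 38.5% from 3 to 4 Mb and 16.2% from 9 to 10 Mb. Even there the share was above the 13.0% of the rest.

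Summed strength fell most steeply at the very end. The first 1 Mb held 0.273% of the autosomal strength of the wild type list and 0.0604% of that of the knockout list, 4.51 times less. The hotspots there covered 89.9 kb with a mean strength of 209 in the wild type, and 37.6 kb with a mean of 90.9 in the knockout. The log2 ratio of the shares was -2.17 in the first bin, then -1.63, -1.12, -0.74, -0.46, -0.36 and -0.37. From 7 Mb on it was between -0.18 and 0.10. Leaving out 1 chromosome at a time moved the first bin between -2.46 (without chromosome 2) and -2.06 (without chromosome 11). The background estimate per kb in this bin was 11.4 reads (wild type) and 13.3 reads (knockout), above the rest in both lists, and its part in the number of hotspots called there was not tested. Over the last 3 Mb, the knockout estimate per kb was 6.80 reads for the 16 together and highest on chromosome 2 (16.5).

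Median log2 relative strength of shared hotspots kept a longer tail. It was -1.51 in the first bin (20 hotspots, SD 1.14), and -1.69 without chromosome 2 or -1.29 without chromosome 19. Between 1 and 3 Mb it lay at -0.97 and -1.05, and in the next 3 bins at -0.78, -0.81 and -0.76. From 6 to 10 Mb it was -0.36 over 338 hotspots. In the last 3 Mb together, 83 of 97 shared hotspots were lower, 50 were over 2-fold lower (51.5%) and 1 was over 2-fold higher.

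Relative strength also varied with strength itself, in the windows and elsewhere. The hotspots were therefore split by wild type strength into 3 groups: weak (up to 116), middle and strong (over 301). The limits were set to give groups of like size over all autosomal shared hotspots. Strong hotspots of the rest had a median of -0.57, middle ones -0.03 and weak ones 0.57. In the last 3 Mb the medians were -1.91 for 27 strong, -1.05 for 48 middle and -0.10 for 22 weak hotspots, below the rest at each strength. Ordered by the mean of both lists instead, they were -1.41 (9 hotspots), -1.30 and -0.79, against -0.31, 0.09 and 0.31 in the rest. Missing hotspots were mostly weak: in the last 3 Mb the wild-type-only share was 79.2% of weak, 39.2% of middle and 10% of strong hotspots (3 of 30). The rest gave 27.9%, 5.01% and 0.424%.

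Chromosomes followed this pattern with few exceptions. The share of summed strength was lower in the knockout, relative to the rest of the same chromosome, on 16 of 16. The wild-type-only share was above that of the rest on 16 of 16, from 15.3% on chromosome 1 to 59.3% on chromosome 15, where the rest ranged from 8.89% to 19.2%. The number ratio was below that of the rest on 15 of 16, with a median of 1.29. Chromosome 12 was the exception, with 52 wild type and 88 knockout hotspots (ratio 1.69, against 1.53 in its rest). Median relative strength was below the rest on 15 of 16, and chromosome 6 was the exception with 0.05 against -0.09. The knockout-only share was below the rest on 8 and above it on 8. These chromosomes share the same 2 lists and are not replicates.

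**Figure D2:**
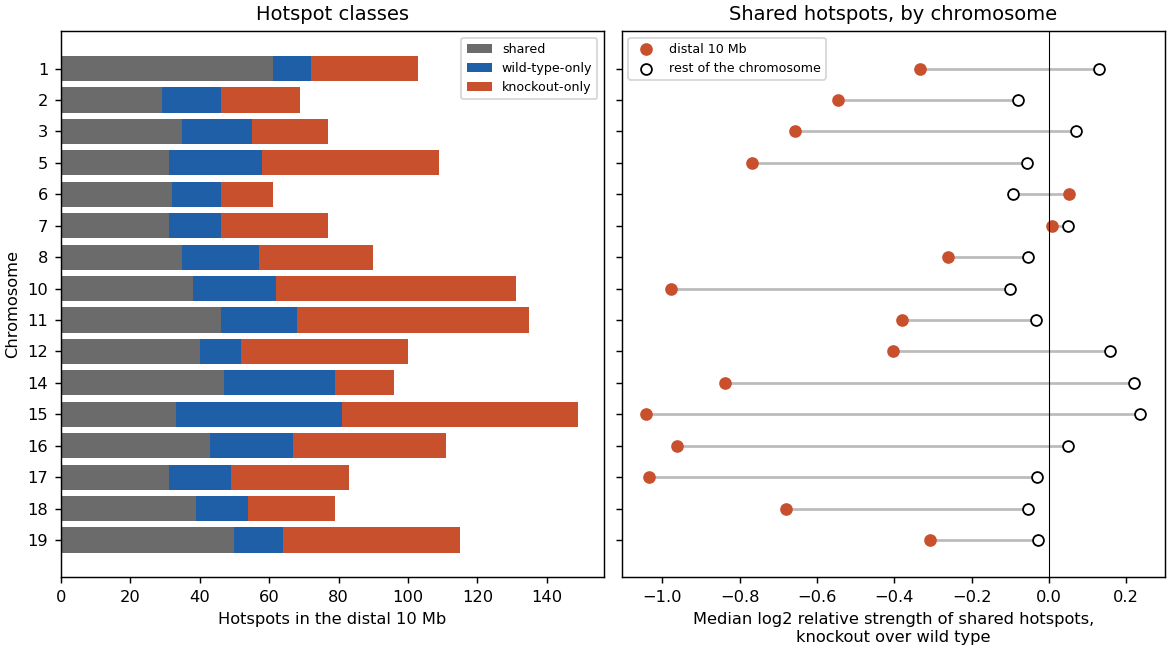
Hotspot classes and shared hotspot strength in the distal 10 Mb, by chromosome. The left plot counts hotspots that were shared, wild-type-only or knockout-only, and the right plot gives the median log2 relative strength of shared hotspots, knockout over wild type, in the distal 10 Mb (filled) and in the rest of the chromosome (open). Filled points lie left of the open ones on 15 of 16 chromosomes, farthest on chromosome 15 (-1.04 against 0.24), and chromosome 6 is the exception.

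Chromosomes 14 and 15 had the densest wild type windows and the most wild-type-only hotspots. On chromosome 14, 79 wild type and 64 knockout hotspots were listed, the only window with fewer in the knockout (ratio 0.810). Of these 47 were shared, 32 wild-type-only and 17 knockout-only. Its share of summed strength changed by -0.85 on the log2 scale, the lowest of the 16. On chromosome 15, 81 wild type and 101 knockout hotspots had only 33 in common, with 48 wild-type-only and 68 knockout-only, and the shared ones had a median of -1.04. Without both chromosomes, left out after their values were seen, the wild-type-only share over the other windows was 32.0% and the median relative strength -0.52.

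Chromosomes 10, 16 and 17 had shared medians close to that of chromosome 15. On chromosome 10, the shared median was -0.98, but 69 knockout-only hotspots against 24 wild-type-only left the log2 ratio of summed shares at 0.02. On chromosome 16 the counts were 67 and 87, with 43 shared and a median of -0.96. On chromosome 17 they were 49 and 65, with 31 shared and a median of -1.03. The knockout-only hotspots of chromosome 10 lay almost all beyond the last 3 Mb, where 66 of the 69 were found.

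Chromosomes 2, 3, 5 and 18 were intermediate in strength, with medians of -0.55, -0.66, -0.77 and -0.68. Chromosome 2 had 46 wild type and 52 knockout hotspots, chromosome 3 had 55 and 57, and chromosome 18 had 54 and 64. Chromosome 5 differed in class: with 58 and 82 hotspots, 31 were shared, 27 wild-type-only and 51 knockout-only, and within its last 3 Mb only 1 of 10 wild type hotspots was shared.

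Chromosomes 1, 8, 11, 12 and 19 had milder medians, between -0.26 and -0.40. Chromosome 1 had 72 and 92 hotspots, of which 61 were shared. Chromosome 8 had 57 and 68. Chromosome 11 had 68 and 113 with 67 knockout-only, and chromosome 19 had 64 and 101 with 51 knockout-only. Chromosomes 6 and 7 had medians near 0 over the whole window (0.05 and 0.01). Yet their last 3 Mb gave -1.18 and -1.32, over only 6 and 3 shared hotspots. There, chromosome 6 had 17 wild type and 6 knockout hotspots, and chromosome 7 had 11 and 4. In the last 3 Mb the shared median was below the rest on 14 of 16 chromosomes. It was above on chromosomes 3 (0.16, 5 shared hotspots) and 5 (0.17, 1 shared hotspot). The log2 ratio of shares was below the rest on 15 of 16. It was 1.77 on chromosome 17, with 1 wild type and 4 knockout hotspots.

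**Figure D3:**
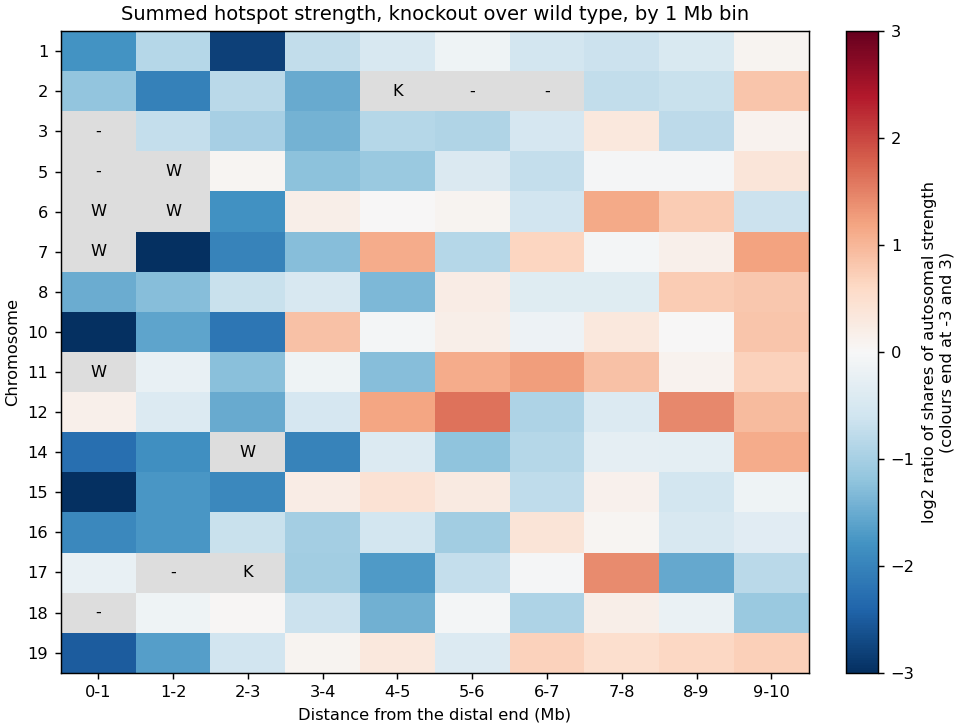
Log2 ratio of the share of autosomal strength, knockout over wild type, for each 1 Mb bin of each chromosome (rows), by distance from the distal end. Blue is lower and red higher in the knockout; grey cells hold hotspots of the wild type list only (W), of the knockout list only (K) or of neither (dash), and colours end at -3 and 3. Blue is deepest in the left 3 columns, and red cells are spread over the right of the map, with chromosomes 12, 17 and 18 departing from the pattern at the left.

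The distance at which the change faded was taken as the near edge of the first 1 Mb bin whose log2 ratio of shares came within 0.5 of the rest of that chromosome. With the 16 chromosomes together this was 4 Mb. The median over chromosomes was 3 Mb. It was 0 Mb on chromosomes 12 and 17, 1 Mb on 11 and 18, 2 Mb on 5, 3 Mb on 6, 8, 15 and 19, and 4 Mb on 1, 10 and 14. On chromosome 18 the last 1 Mb held no hotspot in either list, and the first bin with hotspots already met the rule. The longest were 6 Mb on chromosome 16 and 7 Mb on chromosomes 3 and 7. The rule is two-sided, so a bin well above the rest also counts as not faded. It also stops at the first such bin, and on some chromosomes bins farther in were low again. Examples are chromosomes 5 (-1.24 from 3 to 4 Mb), 8 and 11 (-1.35 and -1.28 from 4 to 5 Mb). Chromosomes 12 (-1.5 from 2 to 3 Mb) and 14 (-1.20 from 5 to 6 Mb) are others. The other settings gave 1 to 8 Mb on chromosome 11, 4 to 8 Mb on 14 and 2 to 8 Mb on 15. On chromosome 7 the bin from 4 to 5 Mb was already higher in the knockout (1.11, with 3 wild type and 9 knockout hotspots), and the other settings gave 3 or 4 Mb. On chromosome 2 no bin met the rule within 10 Mb: 2 of its bins held no hotspot in either list, and the last, from 9 to 10 Mb, lay above the rest (0.84, with 4 and 12 hotspots). The other settings gave 0 to 8 Mb there. Bins of single chromosomes are thin, with at most 14 wild type and 21 knockout hotspots, so 1 strong hotspot can set the value. On chromosome 17 the first bin rested on a single shared hotspot 183.5 kb from the end, near Mettl4, with strengths of 77 and 61. The next wild type hotspots lay beyond 3 Mb, and the bin from 2 to 3 Mb held 3 knockout-only hotspots. Measured on shared hotspots alone, the 16 together faded at 7 Mb.

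The same profile at the excluded ends was steeper and ended about as far in. On chromosomes 4, 9 and 13 the first 4 bins had log2 ratios of shares of -4.04, -3.26, -2.80 and -1.70, and the distance by the same rule was 5 Mb. These bins held 13 to 23 wild type and 2 to 8 knockout hotspots, under 20 in the knockout list throughout. At the other end of the 16 chromosomes, from 3 to 10 Mb of the proximal end, the number ratio was 1.65 and the log2 ratio of shares 0.02. The shared median there was -0.27 and the wild-type-only share 20.5%, between those of the distal windows and the rest. The difference between these regions was not tested.

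At the outermost 1 Mb, individual hotspots could be followed. The wild type list had hotspots there on 13 of the 16 chromosomes and the knockout list on 10. Of the 20 shared ones, 17 were lower in relative strength and 12 over 2-fold lower. As deposited, their strengths ran from 30 to 1077 in the wild type with a median of 306, and from 26 to 424 in the knockout with a median of 63.5. The 27 wild-type-only hotspots had strengths of 36 to 253 with a median of 78, and 10 of them were at or above the median of the whole wild type list (152).

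**Figure D4:**
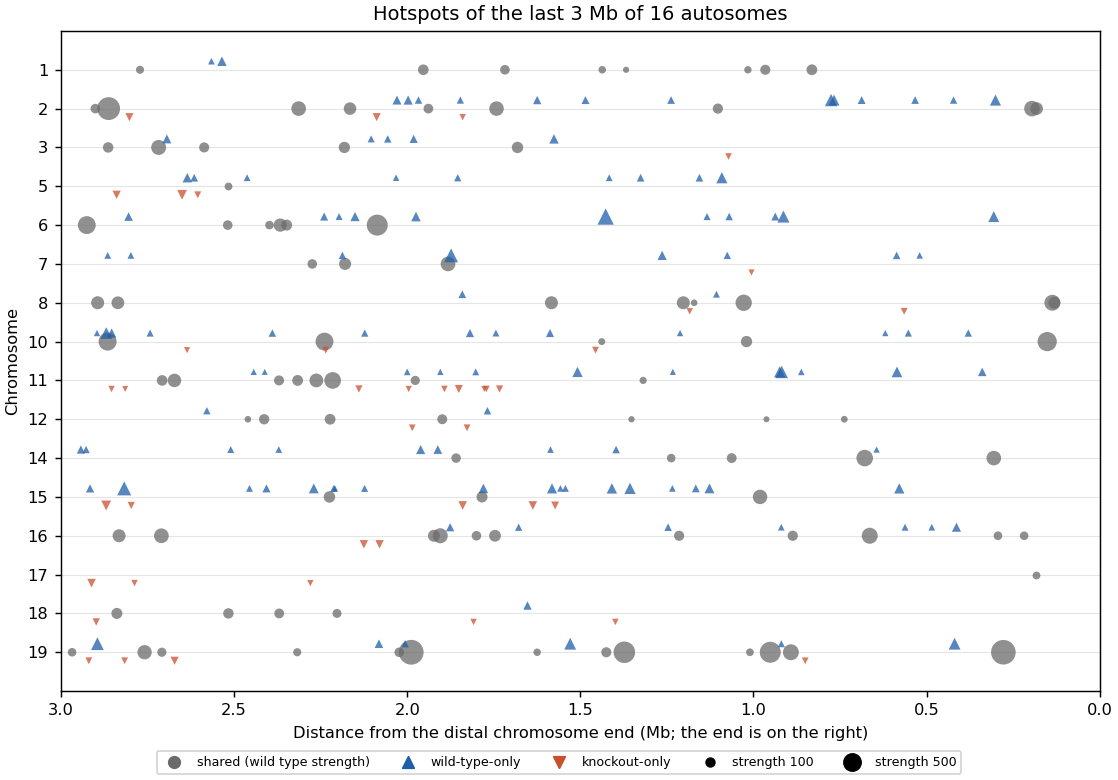
Every hotspot of the last 3 Mb of the 16 autosomes, with the distal end on the right. Grey circles are shared hotspots, blue triangles wild-type-only and red triangles knockout-only, and the area of a mark follows strength (wild type strength for shared hotspots). The last 1 Mb holds 20 grey, 27 blue and 2 red marks, and chromosomes 3, 5 and 18 have none there.

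The largest decrease in the windows was at the tip of chromosome 10. The hotspot chr10:130542272-130544684, 151.5 kb from the end and nearest to the vomeronasal receptor gene Vmn2r87, had a wild type strength of 645 (595 to 698) and a knockout strength of 58 (43.0 to 76.0), a log2 relative change of -3.21. On chromosome 19 the outermost hotspot, chr19:61152379-61154571 near the zinc finger gene Zfp950, had 1077 (1012 to 1145) and 114 (92.9 to 138), a change of -2.97. Both stayed the most distal hotspot of their chromosome in either list. Also on chromosome 19, the hotspot near Prlhr, a neuropeptide receptor gene, went from 773 to 197 (-1.70).

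Other tips kept a hotspot at reduced strength. Inside Fgf14, which encodes a fibroblast growth factor homologue that binds sodium channels, chromosome 14 had shared hotspots of 358 and 469 in the wild type and 93 and 73 in the knockout (-1.67 and -2.41). The hotspot inside Plxna2, a semaphorin receptor gene on chromosome 1, went from 179 to 36 (-2.04). On chromosome 8, the pair inside the predicted gene Gm32856 went from 431 to 66 (-2.44) and from 231 to 102 (-0.91). The hotspot near Hoxc4 on chromosome 15 went from 350 to 49 (-2.57), and the one near Tmprss2, a serine protease gene on chromosome 16, from 435 to 96 (-1.91). Also on chromosome 16, hotspots near Bace2 and B230307C23Rik went from 156 to 51 (-1.34) and from 100 to 66 (-0.33), and another hotspot of chromosome 1, 113495 bp from Plxna2, from 153 to 52 (-1.29).

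A few tips changed little in relative strength. Near Gm40035 on chromosome 2, hotspots 182.1 and 195.4 kb from the end had 262 and 414 in the wild type and 184 and 424 in the knockout (-0.24 and 0.30). Those at Macc1 and Itgb8 on chromosome 12 were weak in both lists, with 48 and 30 against 54 and 26 (0.44 and 0.06). The hotspot near Mettl4 on chromosome 17 changed by -0.07. The hotspots of chromosome 2 aside, these were below the median strength of their list in both genotypes.

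On chromosomes 6, 7 and 11 the last 1 Mb had wild type hotspots only. On chromosome 6 these were at Bicd1, a dynein adaptor gene (184), and at the importin gene Ipo8 (231 and 79). On chromosome 7 they were at LTO1 (44) and near Fgf4 (70). On chromosome 11 they were near Metrnl (98), inside Tbcd, a tubulin folding cofactor gene (177), inside Hexdc (44) and near Uts2r (253 and 192). On chromosome 2, the knockout list lacked those inside Rtel1, a helicase gene of telomere maintenance (243 and 183), Myt1 (193), Zbtb46 (78), Uckl1 (73) and Rgs19 (65), all of them between 300.9 and 775.8 kb from the end. In the rest, 5.01% of the wild type hotspots with strengths above 116 and up to 301, such as these at Rtel1 and Myt1, were missing from the knockout list.

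The other wild-type-only hotspots of the last 1 Mb stood beside shared ones. On chromosome 10 they were near Tespa1 (62) and Olfr824 (58) and at the end of Olfr822 (37), and on chromosome 14 inside Fgf14 (36). On chromosome 15 the outermost was inside Nckap1l, a gene of blood cell actin regulation (160). On chromosome 16 they were inside Prdm15, a zinc finger gene of the PRDM family (117), near Ripk4 (48), inside Tmprss2 (52) and near Bace2 (46). On chromosome 19 they were inside Grk5, a receptor kinase gene (222), and near Cacul1 (56). Those at Grk5 and Nckap1l were above the wild type median strength.

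The outermost hotspot was the same one, within 5 kb, in both lists on 9 of 16 chromosomes. It lay nearer to the end in the wild type on 5 (chromosomes 5, 6, 7, 11 and 15) and nearer in the knockout on 2 (chromosomes 3 and 18). The median distance was 322.5 kb in the wild type and 784.3 kb in the knockout. The longest retreat was on chromosome 6, from 305.8 kb (inside Bicd1) to 2.09 Mb (near Ccdc91, where a shared hotspot went from 774 to 230). On chromosome 5 it moved from 1.09 Mb, inside the cohesin regulator gene Pds5b, to 2.52 Mb near Alox5ap.

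Of the 166 protein-coding genes in the last 1 Mb, 22 had a wild type hotspot inside or within 1 kb (13.3%, 8.50 to 19.4), and 7 had a knockout hotspot (4.22%, 1.71 to 8.50). In the rest of the 16 chromosomes, 20.3% of 15644 genes had a wild type hotspot and 42.1% a knockout hotspot. The median length of these genes was 15.4 kb in the last 1 Mb and 17.6 kb in the rest. All 7 had a wild type hotspot too and kept a shared one: Plxna2, Gm32856, Macc1, Itgb8, Fgf14, C2cd2 and Cacul1. C2cd2 on chromosome 16 went from 103 to 43 (-0.99). Cacul1, which encodes a CDK2-associated protein, went from 431 to 57 (-2.65) inside the gene on chromosome 19, and its start, 850.4 kb from the end, had a knockout-only hotspot of 48. The other knockout-only hotspot of the last 1 Mb lay 102941 bp from Itgb1, an integrin gene on chromosome 8, with a strength of 50.

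The strongest hotspots of the windows lay farther in and all remained in the knockout list. The 10 strongest in the wild type, between 5.88 and 9.79 Mb from the end, were all shared and all lower in relative strength. The hotspot inside St8sia1, a ganglioside synthesis gene on chromosome 6, went from 2483 to 1199 (-0.78). Inside Trrap on chromosome 5, a gene for a histone acetyltransferase scaffold, it went from 2341 to 358 (-2.44), and inside Donson, a replication gene on chromosome 16, from 1354 to 198 (-2.50). The smallest change of the 10 was inside the adhesion gene Sdk1, from 1316 to 840 (-0.38), and the others were between -2.03 (Uggt2) and -0.72 (Mgmt, a DNA repair gene). Strong wild type hotspots were lower in the rest as well (median -0.57). Those from 6 to 10 Mb had a median of -1.001 over 111 hotspots, below that of the rest. Whether the 10 differ from hotspots of like strength in the rest was not tested.

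Hotspots that were strong and missing were few. The strongest wild-type-only hotspots were inside Ttc3 (628) and Dyrk1a, a kinase gene (372), both on chromosome 16, near Usp12 on chromosome 5 (577), near Dock9 on chromosome 14 (542) and inside Tmtc1 on chromosome 6 (451). They lay 3.83, 3.56, 5.15, 3.10 and 1.43 Mb from the end. The largest decreases after the 2 at the tips of chromosomes 10 and 19 were inside Tnrc6c (979 to 93, -3.13), Zfp407 (897 to 105, -2.83) and Ubl3 (493 to 59, -2.79), at 4.40, 6.26 and 3.32 Mb.

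The largest increases lay farther in. They were near Rpl38 on chromosome 11 (42 to 266, 2.93) and near Aebp2 and Gm6614 on chromosome 6 (76 to 213 and 146 to 408, 1.76 and 1.75). The others lay far from any protein-coding gene. They were 644303 bp from Ins1 on chromosome 19 (78 to 285, 2.14) and 1024066 bp from Adam6a on chromosome 12 (73 to 207, 1.77). All 5 lay between 5.56 and 9.81 Mb from the end. The 10 strongest knockout-only hotspots were at 6.02 to 8.96 Mb and had strengths of 344 to 510. At gene ends these were Calm2, a calmodulin gene (460), Gtf2a1l, a germ cell transcription factor gene (440), Sumo2 (418), Socs5 (378), Cndp2 (351) and Traf3 (344). The others were inside Zzz3 (510), Add3 (441) and Zfp516 (398) and near Mon2 (410).

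New hotspots of the knockout were placed at gene ends as often in the windows as elsewhere. Their centre was within 1 kb of a protein-coding gene's start or finish in 290 of 629 (46.1%, 42.2 to 50.1), against 46.8% in the rest and 46.6% of all knockout-only hotspots. Of the shared hotspots of the windows, 14 of 621 (2.25%) were at a gene end. Outside chromosome 18, which had no start sites listed, 234 of 283 of the knockout-only hotspots at gene ends (82.7%) were within 1 kb of a start. Start sites were listed for 79.9% of protein-coding genes, so some starts may have been missed. In the last 3 Mb, 21 of 41 knockout-only hotspots (51.2%) were at gene ends. Of the others, 3 (7.32%) lay inside genes and 17 (41.5%) between genes, against 22.7% and 30.5% in the rest.

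Seen from the genes, the deficit was large at the ends and absent by 6 Mb. A knockout-only hotspot was at an end of 22 of 557 protein-coding genes in the last 3 Mb (3.95%, 2.49 to 5.92), against 25.8% in the rest and 25.5% of all genes. The share was 22.3% from 3 to 6 Mb and 32.5% from 6 to 10 Mb. Genes were denser at the ends, with 11.6 per Mb in the last 3 Mb against 8.23 in the rest. Knockout-only hotspots at gene ends were also weaker near the tips, with median strengths of 52, 70 and 93.5 in the 3 zones and 90 in the rest.

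Promoters were next split by base composition, a split added after the first results were seen. A promoter of 300 bases (250 before and 50 after the start) was called CpG-rich when its ratio of observed to expected CG was at least 0.6 and its G and C content at least 50%. Promoters were matched for 79.9% of protein-coding genes, with none from chromosome 18. CpG-rich promoters made up 46.0% of those in the last 3 Mb and 46.7% in the rest. A knockout-only hotspot was within 1 kb of the start at 17 of 201 CpG-rich promoters of the last 3 Mb (8.46%, 5.0 to 13.2). In the rest it was 48.0%, and over all autosomal CpG-rich promoters 46%. By zone the share was 2.22% in the last 1 Mb (1 of 45), 8.43% from 1 to 2 Mb, 12.3% from 2 to 3 Mb, 41.4% from 3 to 6 Mb and 55.5% from 6 to 10 Mb. Other promoters had 1.27% in the last 3 Mb and 8.95% in the rest. Wild type hotspots were at 0 of the 201 CpG-rich promoters, which allows a share of up to 1.49% (3 counts), and at 0.296% of those in the rest.

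**Figure D5:**
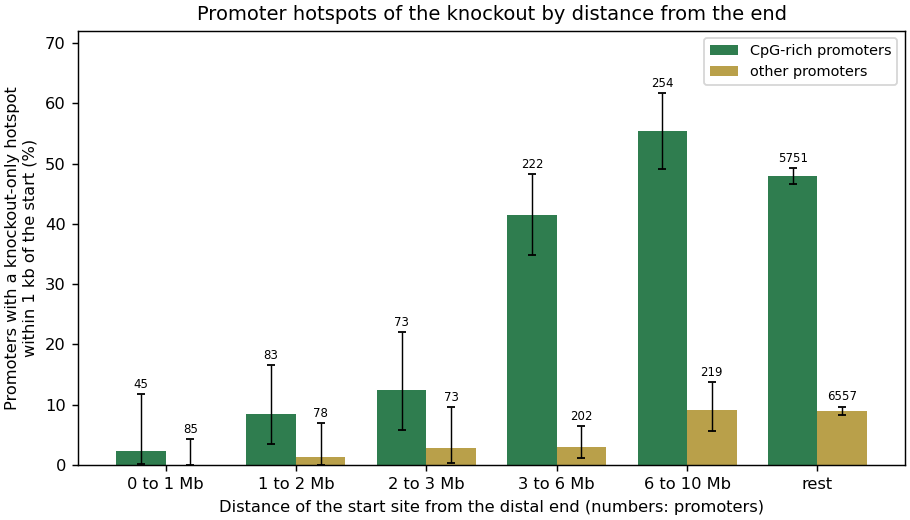
Percent of promoters with a knockout-only hotspot within 1 kb of the start, by distance of the start from the distal end, over 15 autosomes with promoter sequences. Green bars are CpG-rich and brown bars other promoters, lines are exact 95% binomial intervals and numbers count promoters. Green bars stay at 12.3% or lower up to 3 Mb and stand at 41.4% from 3 to 6 Mb.

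All 15 chromosomes with promoter sequences had a lower share of CpG-rich promoters with such a hotspot in the last 3 Mb than in the rest, and 8 had none. The numbers are small on most, with 0 of 1 such promoter on chromosome 17 and 1 of 2 on chromosome 12. The promoters with the strongest such hotspots were Acvr1b (144, 121 to 170), Zfp740 (102) and Sp1 (100) on chromosome 15 and Hmgn1 (96) and Brwd1 (95) on chromosome 16. Sp1 encodes a factor that binds GC boxes, Hmgn1 a nucleosome-binding protein and Brwd1 a bromodomain protein needed in spermatids. Also among the 20 promoters of the last 3 Mb with one were Actg1, the cytoplasmic gamma actin gene (59), Smarcc2, a chromatin remodelling gene (52), and Gaa, a lysosomal glucosidase gene (28).

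Promoters with and without a new hotspot differed in their letters. The GC box GGGCGG, on either strand, was in 78.9% of the 279 window promoters with a knockout-only hotspot, in 42.9% of the 1055 without, and in 47.3% of all autosomal promoters. The motif CCAAT, on either strand and not overlapping the GC box in letters, was in 40.9%, 38.1% and 39.1%. Both were searched over the 300 bases. The GC box was also in 75.4% of the 3348 promoters of the rest with a knockout-only hotspot. Of the 279 window promoters with one, 89.6% were CpG-rich, and of the 1055 without, 40.5%. Median G and C contents of these sets were 66.7% and 55.7%, and the motif was not tested apart from base composition. In the sequences printed above, the GC box is found at Sumo2, Traf3, Smc3, Acvr1b and Cdk2 and not at Brca2. In the last 3 Mb, promoters with a hotspot had a median of 37.5 CG dinucleotides and those without 13. CpG-rich promoters there had medians of 40 and 25.

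Genes of chosen groups gave small counts. Of 7 meiotic recombination and synapsis genes in the windows, 2 carried one at an end that was knockout-only: Smc3 (248) and Syce1, a synaptonemal complex gene (94). The nuclease gene Spo11, the axis gene Sycp2, the mismatch repair relative Msh4, Brca2 and Cdk2 had none at an end. Spo11 had a knockout-only hotspot inside the gene (89). Sycp2 and Msh4 held shared hotspots, which went from 623 to 168 (-1.62) and from 418 to 64 (-2.44). Over all autosomes 48.0% of this group had one. Of 4 ubiquitously expressed genes, the splicing factor gene Srsf2 (125) and the tubulin gene Tuba1b (70) had one, and Actb and Atp5b did not. The share of that list over all autosomes was 51.3%. Of 5 Sertoli and Leydig cell genes, Dhh had one at an end (134), while Sox9, Amhr2, Lhcgr and Fshr had none, and the share over all autosomes was 12.5%. No spermatid gene of the list lies in the windows.

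Clustered families of receptor and keratin genes were almost free of new hotspots, there as elsewhere. Of 86 olfactory receptor genes in the windows, only Olfr774 had a knockout-only one at an end (1 gene, strength 51), and of 1104 on all autosomes 0.543% had. Of 55 keratin and keratin-associated genes 1 had one (Krtap13, 90), and of 5 vomeronasal receptor genes none had, with 1.83% and 0.847% over all autosomes. Zinc finger genes with the prefix Zfp had one in 8 of 29 (27.6%), led by Zfp407 (137), Zfp236 (132) and Zfp740 (102), and in 27.3% over all autosomes. Over all 1660 protein-coding genes of the windows the count was 328 (19.8%), and 24.8% over all autosomes.

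The nearest hotspot of each chromosome on either side of the 10 Mb border was compared, 16 on each side. Wild type hotspots just inside had strengths of 49 to 1203 with a median of 94.5, and those just outside 46 to 1253 with a median of 154.5. In the knockout the values were 23 to 715 with a median of 95.5 inside, and 38 to 821 with a median of 101.5 outside.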

How the data were processed

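DMC1-SSDS hotspots of adult testis were analysed from 2 deposited lists, 1 per genotype. The other samples of the series, H3K4me3 and input at 13 days of age, were not analysed here. Per the submitters' processing notes, the tools were MACS2, BWA, Bowtie2 and CASAVA and the build was mm10; the role of each tool was not given. The deposited signal reads are whole-number counts per interval, per the file headers. The deposited background is a signal estimate that need not be whole, and strength, also a deposited signal, equals count minus background in 100% of hotspots. The deposited rank was used only in an alternative. The deposited percent of strength was not used, and percent strengths were computed as strength over the summed strength of the list. Nothing in the values showed that one list had been scaled to the other. The weakest hotspot had 28 reads in the wild type list and 23 in the knockout list, with medians of 163 and 116, and total library depth was not used.

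Lists were paired and measured in Python 3.11.15 with pandas 2.3.3, NumPy 2.4.6 and SciPy 1.17.1, and drawn with Matplotlib 3.10.9. The pairing and counting code was tested on simulated data. Chromosome lengths of mm10 were written by hand from general knowledge. By these lengths 0 hotspots ran past a chromosome, while the outermost protein-coding gene ended 101 to 295.1 kb before the end. Genes came from a RefSeq table of GRCm38.p6 (21631 protein-coding) and promoters from RefSeq sequences of the same build. A hotspot was named by the protein-coding gene with an end within 1 kb of its centre, else the gene it lay in, else the nearest gene. The word near marks the nearest gene at any distance. The text names the hotspots of the last 1 Mb, the outermost hotspots, the 10 strongest wild type and knockout-only, the 5 strongest wild-type-only, the 5 largest increases and decreases, and list members. Start positions are as the lists give them. Windows, gene lists and tests were chosen with earlier results of these data known.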

Additional observations from a re-analysis of the deposited data

How the results depend on the processing

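With 1 list per genotype, no replicate could be left out. No paired analysis was possible because the lists hold no column per animal. Of 45 alternatives, 23 stayed within the range set around the main result, 21 moved and 1 turned round. The range was 1 bin either way for fade distances. For median relative strength it was 1 standard error of the mean over hotspots, set either way around the median (-0.58 to -0.50). That range does not measure the spread of the median or between animals. Otherwise it was a counting interval, which for the number ratio treats the 2 counts as independent. In the distal 5 Mb alone, the number ratio was 0.931, the wild-type-only share 46.2%, the median log2 relative strength -0.88, the share over 2-fold lower 44.4% and the log2 ratio of summed strength shares -0.97. The knockout-only share turned from above to below the rest in that window, 42.2% against 47.5%, and new hotspots stood at 2.05 per Mb there and 4.03 per Mb in the rest. The cause of the other shifts was not tested. With only hotspots of at least the wild type median strength, the number ratio was 0.626 (1.12 in the rest), and the wild-type-only and knockout-only shares were 62.4% and 39.9% (25.7% and 33.6% in the rest). With the knockout list reduced to as many of its strongest hotspots as the wild type list holds, these were 0.650, 61.3% and 40.4%. Strengths as deposited gave a median of -0.81 with 44.3% over 2-fold lower, and percent strengths -0.73 with 42.2%. The median over all shared hotspots was then -0.28 and -0.19, and the windows lay 0.56 below the rest on every scale (-0.56 as a difference). Above the wild type median, the values were -1.05 and 52.3%. The ratio of strength shares was -0.46 with shared hotspots only, and -0.36 without chromosomes 14 and 15, which were left out after their values were seen. The fade distance of the 16 together was 7 Mb with shared hotspots only. Within 2 kb of a gene end lay 50.2% of knockout-only hotspots (50.6% in the rest). The CpG-rich promoter split and its alternatives, also chosen after seeing the data, ranged from 7.36% to 10.1% in the last 3 Mb. Median counts of 163 and 116 reads limit single hotspots to the intervals given, and lists without replicates limit every comparison.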

Other observations

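Wild type hotspots that were missing from the knockout list lay inside protein-coding genes more often than those that were kept. In the windows, 209 of 335 wild-type-only hotspots (62.4%) lay inside a gene and away from its ends, and 278 of 621 shared hotspots (44.8%) did. In the rest of the 16 chromosomes the shares were 61.4% and 47.7%, so the same order held outside the windows. Knockout-only hotspots lay inside genes in 23.0% of cases in the windows and 22.7% in the rest. Within the last 3 Mb, 55.9% of 118 wild-type-only and 42.3% of 97 shared hotspots were inside genes, and 3 of 41 knockout-only hotspots were. These are counts from 1 list per genotype, and the difference between classes was not tested.

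From 6 to 10 Mb, hotspots of every class were denser than in the rest. Knockout-only hotspots stood at 6.16 per Mb there and 4.03 per Mb in the rest, shared ones at 5.28 and 4.46, and all wild type hotspots at 7.11 and 5.13. The number ratio was 1.61 there and 1.66 in the rest. Knockout-only density was also above the rest from 3 to 10 Mb of the proximal ends (5.08 per Mb) and from 6 to 10 Mb on chromosomes 4, 9 and 13 (5.0 per Mb). In that zone of the windows, CpG-rich promoters carried a knockout-only hotspot in 55.5% (49.2 to 61.7) against 48.0% (46.7 to 49.3). Shared hotspots of that zone still had a median log2 relative strength of -0.36.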
